A study of Homo sapiens with 4 samples.

Results

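The EGFR and ERK feedback genes are 10 genes by symbol: the receptor inhibitor ERRFI1, the immediate early gene IER3, the ETS transcription factors ETV4 and ETV5, the MAP kinase phosphatases DUSP4, DUSP5 and DUSP6, the Sprouty inhibitors SPRY2 and SPRY4, and the AP-1 transcription factor FOS. Their members were taken from the deposited log ratios as every probe (an arrayed cDNA clone) that the platform annotation gives exactly 1 gene symbol, with each clone kept separate. This gave 11 clones of 9 genes, out of 20976 clones of 12483 genes with 1 symbol and 26629 probes in all. ERRFI1 and ETV5 had 2 clones each, the other 7 genes had 1 each, and DUSP6 is not analysed here because no clone carried its symbol. The genes were chosen with their mean log ratios over the 4 arrays known, so those means are given as a description, and the count of them that passed a threshold supports nothing.

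RNA from A549, a human lung adenocarcinoma cell line, was compared on 4 two-colour arrays, each holding 1 culture overexpressing let-7a-3 and 1 parental culture, with 4 cultures of each kind. The controls were cultures of the parental line, so transfection and let-7a-3 cannot be told apart as the source of a difference, and no label says how many transfected lines lie behind the overexpressing cultures. The numbered RNA sources exchanged dyes, so that arrays 1 and 3 had 1 dye orientation and arrays 2 and 4 the other. No label gives the base of the logarithm, the culture in the numerator, or a common turning of the columns for the dye swap. A positive value therefore stands for a higher level in 1 of the cultures without saying which, no fold is given, and with the sign turned every positive value here would be negative. The labels call the arrays replicates, and the p-values measure only the spread between these 4 arrays. A log ratio holds no level of either culture, so the cell line could not be checked against its markers. With fewer than 5 arrays, the precision is limited.

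The let-7 microRNAs silence messenger RNAs that pair with their seed. The mature let-7a made from the let-7a-3 hairpin is shown because it is the RNA the cultures differ in, with its seed, bases 2 to 8, in capitals (RefSeq, GRCh38.p14, chr22:46112752-46112773, plus strand).
hsa-let-7a-5p: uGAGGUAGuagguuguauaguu

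EGFR, a receptor tyrosine kinase of epithelial cells, signals through RAS, RAF and MEK to the kinase ERK. ERK induces a set of genes within minutes to hours, and many of them act back on the pathway. ERRFI1 binds and inhibits the receptor itself, Sprouty proteins restrain signalling between receptor and RAF, and DUSP phosphatases remove phosphate from ERK and related kinases. ETV4, ETV5 and FOS are transcription factors through which ERK changes transcription, and IER3 is an early response gene that modulates ERK signalling and cell survival.

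Of the 11 clones, 8 had a positive mean and 3 a negative one, and the median of the 11 means was 0.086 against 0.0081 over all 26629 probes. The median size of the mean, without its sign, was 0.122 for the 11 clones against 0.0509 for all probes. ERRFI1 clone 1, IER3, ETV4 and DUSP5 were positive on all 4 arrays, FOS was negative on all 4, and the remaining 6 clones had both signs. Of all probes 7.65% were positive and 6.43% negative on all 4 arrays. The same 4 positive clones, 4 of 11, passed an adjusted p of 0.05 in the limma fit of the shared component, the part of the log ratio common to all arrays, which 2.07% of all probes passed (1.12% with a positive and 0.946% with a negative value). Nothing is read from this count, since the genes were chosen on these values.

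**Figure D1:**
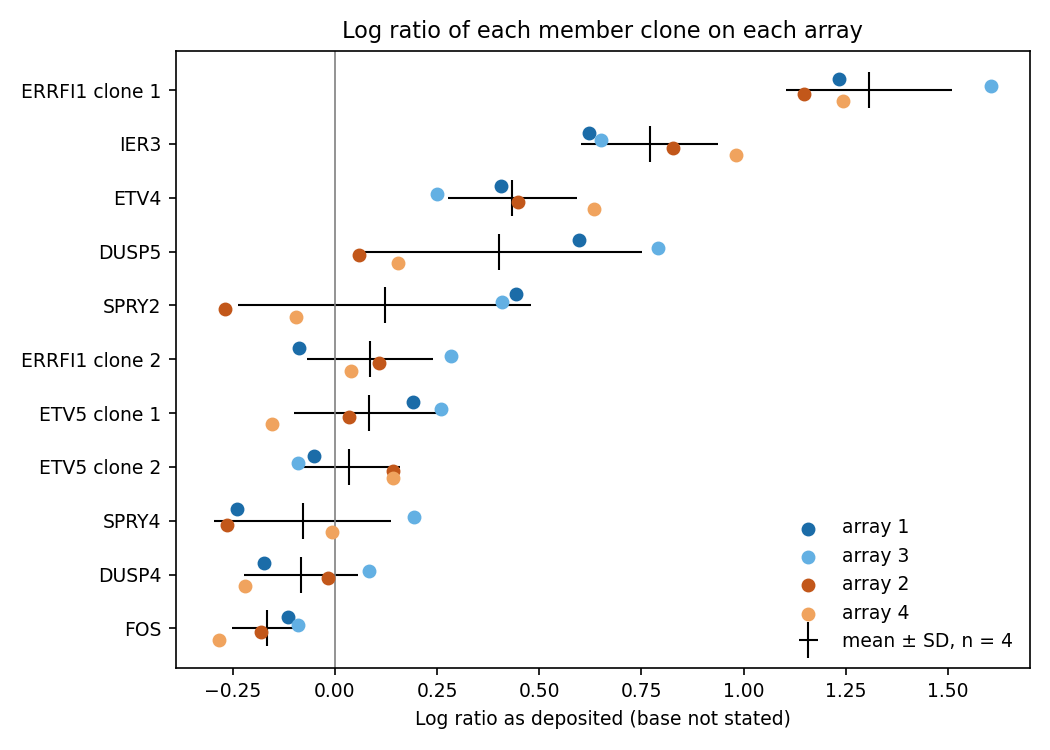
Log ratios as deposited of the 11 clones on each of the 4 arrays (horizontal axis), with arrays 1 and 3 in blue and arrays 2 and 4 in orange; the vertical tick is the mean and the bar the SD over 4 arrays. ERRFI1 clone 1 lies between 1.15 and 1.61, DUSP5 and SPRY2 lie higher on arrays 1 and 3 than on arrays 2 and 4, and FOS lies below 0 on every array.

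ERRFI1, also known as MIG6, encodes a cytoplasmic protein that binds the kinase domain of EGFR, blocks its activation and promotes its degradation. Its clone 1 (RZPDp201C0720D) had log ratios of 1.23, 1.15, 1.61 and 1.24 on arrays 1 to 4, a mean of 1.31 ± 0.20 (SD, n = 4). All 4 arrays lay far from 0, with array 3 the highest and both dye orientations overlapping. By its log ratio this clone ranked 5, 9, 4 and 5 from the top on the 4 arrays and 3 of 26629 by its mean. Clone 2 (IMAGp998A06525) had -0.09, 0.11, 0.28 and 0.04 on the same arrays, a mean of 0.09 ± 0.15, and ranked 3603 from the top by its mean. It thus crossed 0 and lay below clone 1 on every array, by 1.32, 1.04, 1.32 and 1.20, a mean difference of 1.22 ± 0.13 (SD, n = 4). Among the 3108 genes with exactly 2 clones, the difference between the clone means had a median of 0.071, and that of ERRFI1 was the 3rd largest. The part of the transcript that each clone covers is not analysed here, and clone 1 alone carries the large value of ERRFI1. Averaged over both clones ERRFI1 had a mean of 0.70.

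**Figure D2:**
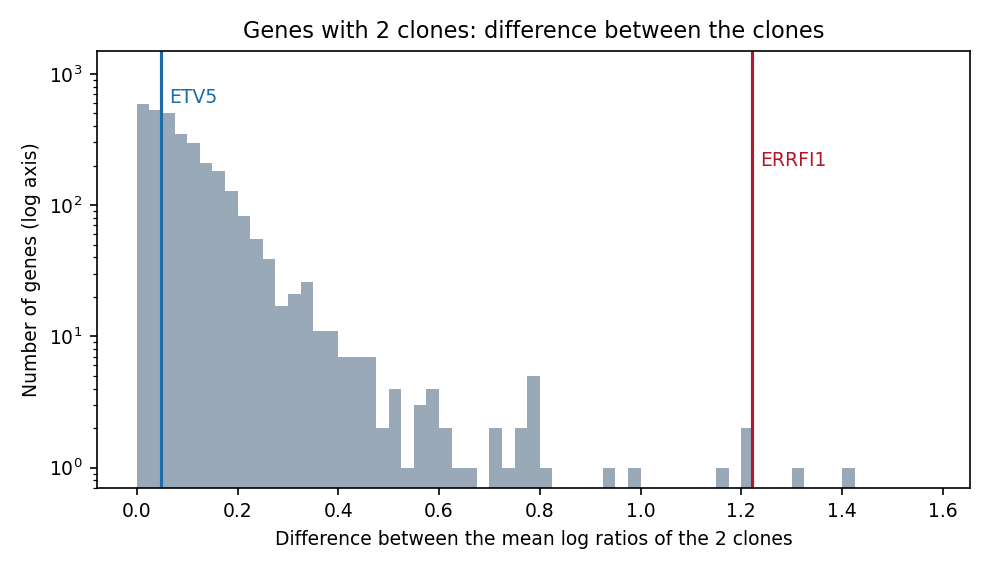
Number of genes (log axis) by the size of the difference between the mean log ratios of their 2 clones, for the 3108 genes with exactly 2 clones. The red line marks ERRFI1 at 1.22, the 3rd largest difference, and the blue line marks ETV5 at 0.048, below the median of 0.071.

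IER3, also called IEX-1, is an immediate early gene of growth factors, stress and NF-kB. Its clone (IMAGp998H18566) had log ratios of 0.62, 0.83, 0.65 and 0.98 on arrays 1 to 4, a mean of 0.77 ± 0.17 (SD, n = 4). Every array was positive, and arrays 2 and 4 lay above arrays 1 and 3 without overlap. It ranked 38 of 26629 from the top by its mean, and between 19 and 113 on the single arrays.

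ETV4 and ETV5 belong to the PEA3 subfamily of ETS factors, which are induced by ERK and themselves activate genes of invasion and branching growth. The ETV4 clone (IMAGp998O021010) had log ratios of 0.41, 0.45, 0.25 and 0.63 on arrays 1 to 4, a mean of 0.43 ± 0.16 (SD, n = 4), ranking 109 from the top. It was positive throughout, lowest on array 3 and highest on array 4. ETV5 clone 1 (IMAGp998F13278) had 0.19, 0.04, 0.26 and -0.15, a mean of 0.08 ± 0.18, and ETV5 clone 2 (IMAGp998I083848) had -0.05, 0.14, -0.09 and 0.14, a mean of 0.04 ± 0.12. The ETV5 clones ran against each other: clone 1 was higher on arrays 1 and 3, clone 2 on arrays 2 and 4, and their difference changed sign with the orientation, at 0.24, -0.11, 0.35 and -0.30 on arrays 1 to 4. On array 3 ETV5 clone 1 (0.26) stood beside ETV4 (0.25), and on the other arrays both ETV5 clones lay below ETV4.

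The MAP kinase phosphatases differ in where they act: DUSP4 and DUSP5 are nuclear enzymes, of which DUSP5 is specific for ERK, while DUSP6 is cytoplasmic. The DUSP5 clone (IMAGp998F12155) had log ratios of 0.60, 0.06, 0.79 and 0.15 on arrays 1 to 4, a mean of 0.40 ± 0.35 (SD, n = 4). It was positive on all arrays but near 0 on arrays 2 and 4, with a mean of 0.69 on arrays 1 and 3 against 0.11 on arrays 2 and 4. It ranked 122 and 59 from the top on arrays 1 and 3, and 10583 and 4387 on arrays 2 and 4. The DUSP4 clone (IMAGp998L12547) had -0.17, -0.02, 0.08 and -0.22, a mean of -0.08 ± 0.14, so it was negative on 3 of 4 arrays and within 1 SD of 0 in the mean.

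Sprouty proteins are induced by growth factors and inhibit the RAS to ERK cascade. The SPRY2 clone (RZPDp201C1028D) had log ratios of 0.44, -0.27, 0.41 and -0.09 on arrays 1 to 4, a mean of 0.12 ± 0.36 (SD, n = 4). Its sign followed the dye orientation, positive on arrays 1 and 3 and negative on arrays 2 and 4. Its own split of signs, or the opposite one, was found in 28.8% of all probes. The SPRY4 clone (IMAGp998L10280) had -0.24, -0.26, 0.19 and -0.01, a mean of -0.08 ± 0.22, negative on 3 arrays and positive on array 3, with overlapping orientations.

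FOS encodes a subunit of the AP-1 transcription factor and is among the first genes that ERK switches on, with a short-lived messenger RNA. Its clone (IMAGp998H18139) had log ratios of -0.12, -0.18, -0.09 and -0.28 on arrays 1 to 4, a mean of -0.17 ± 0.09 (SD, n = 4). It was the member clone with a negative sign on every array, lower on arrays 2 and 4, and ranked 1773 of 26629 by the size of its mean.

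In order of their means the clones ran from ERRFI1 clone 1 over IER3, ETV4, DUSP5, SPRY2, ERRFI1 clone 2, ETV5 clone 1, ETV5 clone 2, SPRY4 and DUSP4 to FOS. ERRFI1 clone 1 lay above IER3 by 0.54, 2.64 times the larger of their SDs, and the ranges of these clones over the arrays did not overlap. IER3 lay above ETV4 by 0.34, 2.00 times the larger SD, although their ranges touched, since ETV4 on array 4 (0.63) exceeded IER3 on array 1 (0.62). Every other pair of neighbours differed by less than 1 SD and overlapped, the gap of DUSP5 over SPRY2 (0.28, 0.78 times the larger SD) being the widest of these in SD units.

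The alternating component, the part of the log ratio that changes sign with the dye orientation, was fitted beside the shared one and was not the contrast on which the genes were chosen. Were the deposited columns not turned to 1 orientation, the difference between the cultures would lie in this component and a dye effect in the shared one. Were they turned, it would be the reverse, and no label says which. Values here carry the sign of arrays 1 and 3. SPRY2 (0.30 ± 0.05, SE; limma adjusted p = 0.0249) and DUSP5 (0.29 ± 0.05, SE; limma adjusted p = 0.0291) passed, both positive, 2 of 11 clones against 4.28% of all probes (2.81% positive and 1.48% negative). With an array left out the component lay at 0.26 to 0.35 for SPRY2 and 0.25 to 0.34 for DUSP5. Both calls were lost without array 2 or array 4, as were most calls over all probes. Each of these fits holds only 1 array of 1 orientation. Without the moderation across probes the limma adjusted p was 0.301 for SPRY2 and 0.302 for DUSP5, and in the fit without the common term 0.0869 and 0.319.

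IER3 had an alternating component of -0.13 ± 0.05 (SE; limma adjusted p = 0.150), ETV5 clone 1 one of 0.14 ± 0.05 (adjusted p = 0.143) and ETV5 clone 2 one of -0.11 ± 0.05 (adjusted p = 0.208), none past the threshold. ETV4 (-0.11, adjusted p = 0.261), ERRFI1 clone 1 (0.11, adjusted p = 0.316), FOS (0.06, adjusted p = 0.442), SPRY4 (0.06, adjusted p = 0.673), DUSP4 (0.04, adjusted p = 0.744) and ERRFI1 clone 2 (0.01, adjusted p = 0.924) did not pass either. In 7 of the 11 clones arrays 1 and 3 did not overlap arrays 2 and 4, and 57.0% of all probes did the same. Of these 7 clones, DUSP5, SPRY2, ETV5 clone 1 and FOS were higher on arrays 1 and 3, and IER3, ETV4 and ETV5 clone 2 were lower. Across all probes, which are not independent replicates, arrays 1 and 3 correlated with Pearson r = 0.43 and arrays 2 and 4 with r = 0.56, while the 4 pairs of opposite orientation had r between -0.16 and 0.06.

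**Figure D3:**
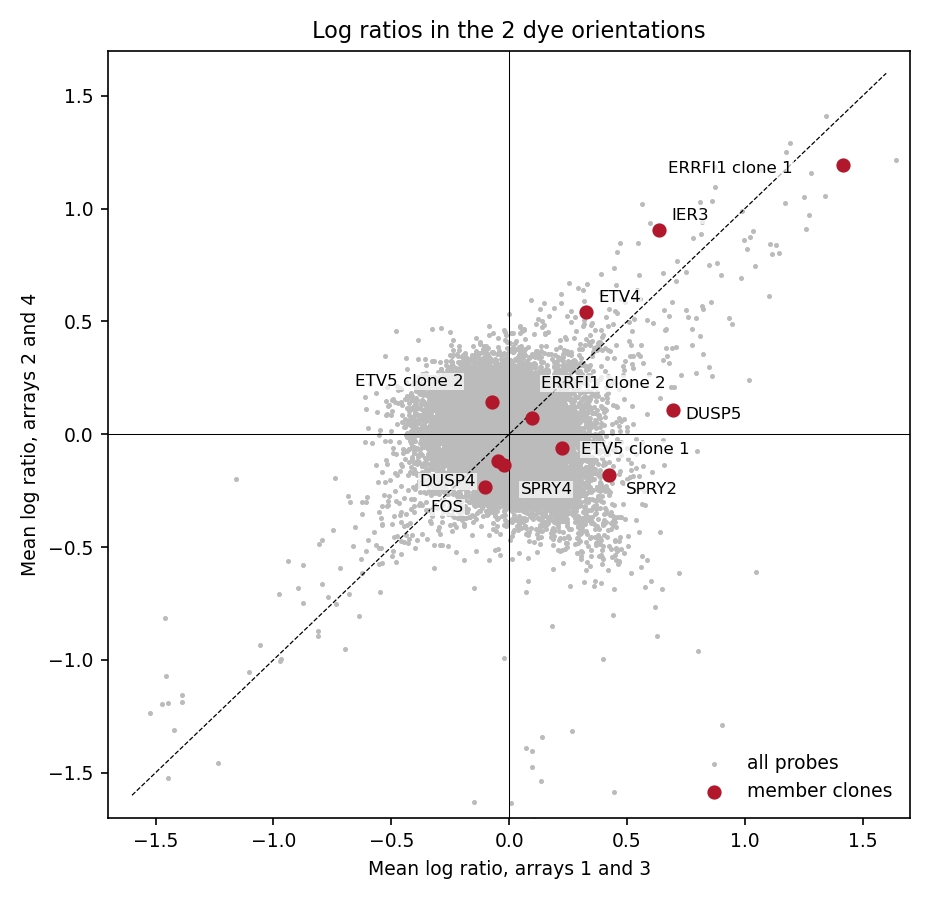
Mean log ratio on arrays 1 and 3 (horizontal) against arrays 2 and 4 (vertical) for all probes (grey) and the 11 member clones (red); the dashed line marks equal values and 7 probes lie outside the axes. ERRFI1 clone 1 lies below the line at 1.42 and 1.20, and IER3 (0.64 and 0.90) and ETV4 (0.33 and 0.54) lie above it. DUSP5 lies at 0.69 and 0.11, and SPRY2 below the horizontal axis at 0.43 and -0.18.

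For the 4 clones past the threshold in the shared component, the probes of other genes at the smallest Euclidean distance over the 4 arrays were sought. Those nearest to ERRFI1 clone 1 were of THSD4 (distance 0.22), ATP1B3 (0.34) and MAGEA6 (0.36). IER3 lay closest to PCNA (0.20), the sliding clamp of DNA replication, then to GABARAPL1 (0.24) and to the ephrin EFNA1 (0.27). ETV4 was closest to PON2 (0.085), CXADR (0.13), an adhesion protein of tight junctions, and the gap junction protein GJA1 (0.13). DUSP5 was closest to the kinase SGK1 (0.24), the lymphatic growth factor VEGFC (0.28) and CPEB4 (0.28), whose probes were likewise higher on arrays 1 and 3 than on arrays 2 and 4, where CPEB4 was still at 0.18 and 0.24. SGK1, for example, had 0.66, -0.11, 0.65 and 0.06 on arrays 1 to 4. The 2 clones of PCNA differed by 0.78 in their means, those of GABARAPL1 by 0.55, of CPEB4 by 0.50 and of ATP1B3 by 0.087. The median over genes with exactly 2 clones was 0.071. Each neighbour is therefore a single probe and does not stand for its gene. The neighbours were picked for nearness on these same values, so their likeness was fixed by the choice. It covers 4 arrays and describes these values only.

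**Figure D4:**
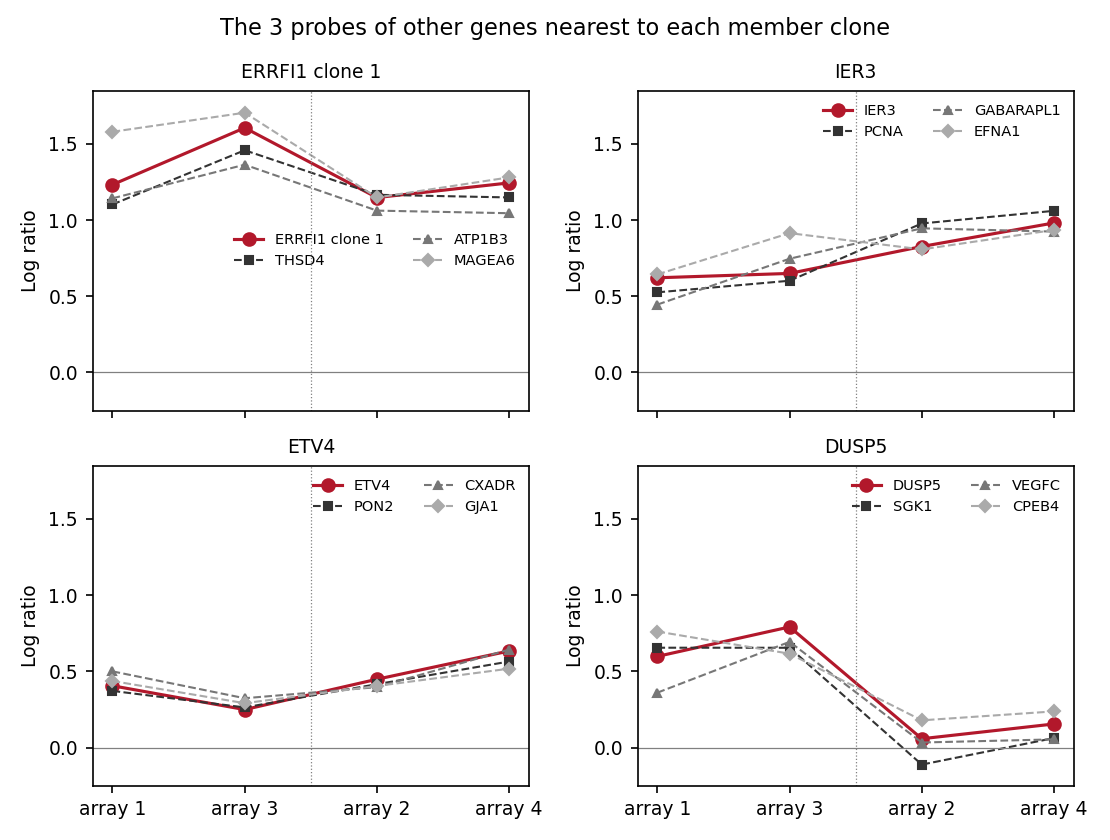
Log ratios on arrays 1, 3, 2 and 4 (dotted line between the orientations) of ERRFI1 clone 1, IER3, ETV4 and DUSP5 (red) and of the 3 nearest probes of other genes for each (grey, dashed). DUSP5 drops from 0.60 and 0.79 on arrays 1 and 3 to 0.06 and 0.15 on arrays 2 and 4. The neighbours in each panel were picked for nearness on these values, which fixes their like shape.

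The wider EGFR and ERK pathway was described with a list of 63 other genes, of which 51 had a clone with 1 symbol and 12 are not analysed here. Genes were averaged over their clones. In the shared component 0 of the 51 passed in limma with a positive and 1 with a negative log ratio, against 1.63% and 1.41% of all 12483 genes (3.04% in either direction). An unadjusted p under 0.05 was reached by 14 of 51, against 14.6% of all genes. The count of listed genes passed changed with the array left out, as did the count over all 12483 genes. Each such fit holds only 1 array of 1 orientation, so these counts are not read. Which of the genes named below passed also changed with the array left out. LRIG1, the gene passed with all arrays, then lay at -0.23 to -0.21. The means of the list were positive in 19 and negative in 32 genes, with a median of -0.026 against 0.0069 over all genes, and ran from -0.23 to 0.16. IER3, ERRFI1, ETV4 and DUSP5 lay above every gene of the list, ERRFI1 through its clone 1 alone (clone 2 was at 0.09). The members were chosen with their means known and the list leaves them out, so nothing is read from this order.

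Of 8 receptors and ligands 0 passed in limma, with 3 below an unadjusted p of 0.05. The ligands EREG (0.16 ± 0.20, SD, n = 4; adjusted p = 0.107) and HBEGF (0.15 ± 0.09; adjusted p = 0.162), whose genes are themselves induced by ERK, were positive in the mean, and the ligand TGFA was negative (-0.11 ± 0.09; adjusted p = 0.325). EREG lay at 0.25 and 0.39 on arrays 1 and 3 and at 0.0063 and -0.0042 on arrays 2 and 4, the order seen in DUSP5. EGFR, given as the receptor on which ERRFI1 acts, averaged -0.02 over 6 clones, whose means lay between -0.12 and 0.06. Of 12 adaptors and kinases 0 passed in limma, with 1 below an unadjusted p of 0.05. The adaptor SHC1, which links receptors to RAS, was lowest (-0.19 ± 0.14; adjusted p = 0.0783), with GRB2 at 0.07 (adjusted p = 0.501) and the ERK-activated kinase RPS6KA3 at -0.08 (adjusted p = 0.467).

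Among inhibitors 1 of 13 passed. LRIG1, a membrane protein that promotes degradation of ERBB receptors, had log ratios of -0.12, -0.30, -0.18 and -0.28 on arrays 1 to 4, a mean of -0.22 ± 0.09 (SD, n = 4; limma adjusted p = 0.0270). All arrays were negative, opposite in sign to clone 1 of the receptor inhibitor ERRFI1, whose clone 2 had both signs. The LRIG1 call was lost without array 2 (adjusted p = 0.193), without array 4 (0.155), without the dye term (0.141) and without moderation (0.303). The p38 and JNK phosphatase DUSP10 had -0.23 ± 0.32 (adjusted p = 0.119) and the ubiquitin ligase CBL 0.10 ± 0.07 (adjusted p = 0.314). Without array 3 DUSP10 was at -0.32, and its value on that array was 0.18 against -0.55 to -0.18 on the others. That fit drops the array that differs and holds only 1 array of its orientation, so no p is given for it.

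Of 18 transcription factors and target genes 0 passed in limma, with 7 below an unadjusted p of 0.05. FOSL1, an AP-1 subunit induced by ERK, was at -0.18 ± 0.25 (SD, n = 4; adjusted p = 0.1005), IER2 at 0.13 ± 0.08 (adjusted p = 0.239) and the ETS factor ELK3 at -0.11 ± 0.15 (adjusted p = 0.258). Counted by single clones, 1 clone of the list passed in the shared component, of ETS2, at -0.36, -0.45, -0.24 and -0.40 on arrays 1 to 4 (mean -0.36, limma adjusted p = 0.00563), and the mean of the 3 ETS2 clones was -0.11 (adjusted p = 0.291). ETS2 is named after its values were seen, and the LRIG1 clone had an adjusted p of 0.0614 over all probes. In the alternating component 1 of 51 genes passed, against 3.29% of all genes (1.9% positive and 1.39% negative): JUNB, a partner of FOS in AP-1, at -0.30 ± 0.06 (SE; limma adjusted p = 0.0395). JUNB lay at -0.19 and -0.31 on arrays 1 and 3 and at 0.50 and 0.20 on arrays 2 and 4, opposite to SPRY2 and DUSP5, and without array 2 its adjusted p was 0.169. The count of listed genes passed in this component also changed with the array left out, as did the count over all probes, and is not read. The largest moderated statistics of the other roles in this component belonged to DUSP10 (0.23, adjusted p = 0.0782), the ligand BTC (0.21, adjusted p = 0.0552) and the kinase MAP2K2 (0.14, adjusted p = 0.139).

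**Figure D5:**
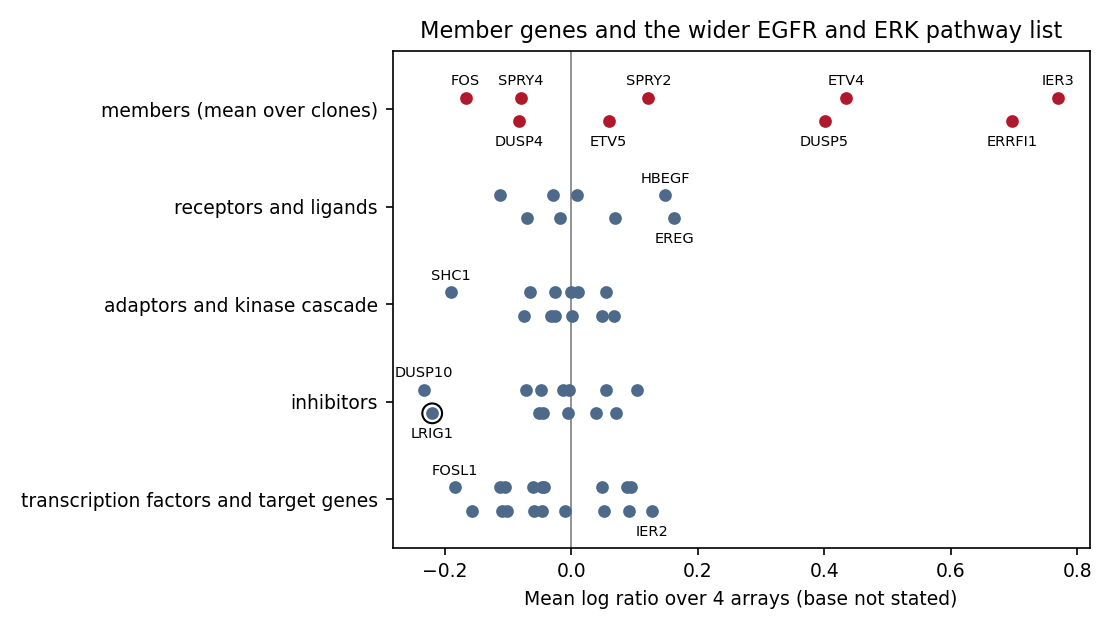
Mean log ratio over 4 arrays of the 9 member genes (red, averaged over clones) and of the 51 measured genes of the wider list by role (blue); vertical offsets only separate points, and the ring marks LRIG1, the listed gene past an adjusted p of 0.05 in limma. IER3, ERRFI1, ETV4 and DUSP5, which were chosen with their means known, lie above every listed gene. DUSP10 (-0.23), LRIG1 (-0.22), SHC1 (-0.19) and FOSL1 (-0.18) lie below FOS.

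RefSeq promoter windows (GRCh38.p14, 250 bases before to 50 after the gene's start) were held for 5 of the 10 genes, ERRFI1, SPRY2, SPRY4, DUSP6 and FOS. They were searched on both strands for the ETS core CCGGAA, the AP-1 site TGANTCA, the core TGACG of the cAMP response element, the serum response element (CArG box) and TATAA, which occur in 17.2%, 7.71%, 24.6%, 1.29% and 20.4% of 35116 such windows. The windows below are those of the clone with the highest mean (ERRFI1), of a clone that followed the dye orientation (SPRY2, the most upstream of 3 annotated starts), of the one nearest to 0 among the genes with a window (SPRY4) and of the one negative on every array (FOS), with matches in capitals. ERRFI1 is at chr1:8026260-8026559, minus strand, SPRY2 at chr13:80341077-80341376, minus strand, SPRY4 at chr5:142324198-142324497, minus strand, and FOS at chr14:75278578-75278877, plus strand.
ERRFI1: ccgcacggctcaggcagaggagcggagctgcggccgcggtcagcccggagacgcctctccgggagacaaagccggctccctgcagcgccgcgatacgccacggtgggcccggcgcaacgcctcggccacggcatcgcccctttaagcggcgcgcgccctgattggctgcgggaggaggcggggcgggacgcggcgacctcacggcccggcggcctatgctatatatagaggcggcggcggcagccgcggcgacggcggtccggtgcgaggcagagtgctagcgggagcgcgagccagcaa
SPRY2: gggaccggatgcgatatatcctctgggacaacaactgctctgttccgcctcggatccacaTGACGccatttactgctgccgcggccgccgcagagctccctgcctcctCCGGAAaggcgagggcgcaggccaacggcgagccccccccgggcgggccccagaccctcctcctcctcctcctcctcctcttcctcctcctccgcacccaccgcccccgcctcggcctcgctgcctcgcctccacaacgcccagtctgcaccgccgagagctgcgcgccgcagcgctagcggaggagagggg
SPRY4: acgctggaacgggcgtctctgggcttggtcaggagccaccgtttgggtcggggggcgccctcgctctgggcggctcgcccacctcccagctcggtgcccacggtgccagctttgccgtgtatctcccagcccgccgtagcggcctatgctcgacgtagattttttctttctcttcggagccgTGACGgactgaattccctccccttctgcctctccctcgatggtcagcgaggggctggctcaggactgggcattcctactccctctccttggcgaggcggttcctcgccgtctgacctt
FOS: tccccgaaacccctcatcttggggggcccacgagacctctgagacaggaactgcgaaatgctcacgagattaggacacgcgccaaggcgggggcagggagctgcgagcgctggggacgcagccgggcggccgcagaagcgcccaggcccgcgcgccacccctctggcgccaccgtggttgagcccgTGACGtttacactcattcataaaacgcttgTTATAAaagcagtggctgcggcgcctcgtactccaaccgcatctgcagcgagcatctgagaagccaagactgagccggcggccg

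The ERRFI1 window held none of the 5 motifs. The SPRY2 window held CCGGAA 142 bases and TGACG 190 bases before the start, and the windows of its other starts held none. The SPRY4 window held TGACG 68 bases before the start. The FOS window held TGACG 64 bases before the start, and TATAA at 33 bases before it and, overlapping on the other strand, at 34. The DUSP6 window held none. Letters that match a motif are a description, and a window without them says nothing about the factor.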

How the data were processed

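Per the series text, ArrayMagic with variance-stabilizing normalization (VSN) turned the authors' scanner files into log ratios. By the same text limma tested them with the dye swap considered. Software versions, spot filters and a turning of the deposited columns to 1 orientation are not stated there. The deposited values are log ratios, 1 column per array, whose base (log2 or natural log) is not stated. VSN compresses the ratios of dim spots, and the deposited table holds no intensities, so dim clones could not be filtered. The values were used without further normalization, and clones were named through the platform annotation (11 of 11 member clones had a gene ID in the RefSeq table of GRCh38.p14, with unchanged symbols).

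Each probe, and each gene averaged over its clones, was fitted with limma 3.58.1 in R 4.3.3, using 1 coefficient common to all arrays and 1 that follows the dye orientation. This left 2 residual degrees of freedom, to which moderation added 7.22 in the fit of probes. The fit of genes was moderated separately, and the degrees of freedom added there are not given here. All tests were two-sided at an adjusted p of 0.05 (Benjamini-Hochberg, over all probes or all genes), and the fit was tested on simulated data. The members, the list of 63 genes, the rule for named genes and the tests were chosen with earlier results of these data known. Named are all member clones, pathway genes past the threshold, the 3 with the largest statistic per role (1 per role in the alternating component) and the 3 probes nearest to each called member. The alternatives tried were leaving out the dye term, centring on the median, also with a common median absolute deviation, quantile normalization, robust (statmod 1.5.0) and no moderation, a threshold of 0.1, probes with 1 symbol, the top probe per gene, and leaving out each array. For the alternating component, the common term was left out in place of the dye term. Figures were drawn with matplotlib 3.10.9.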

Additional observations from a re-analysis of the deposited data

Results flagged for a closer look

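Of the member clones, DUSP5 and SPRY2 differed between the dye orientations by the test of the alternating component itself, at 0.294 and 0.304 in the direction of arrays 1 and 3. ETV5 clone 2 was negative on arrays 1 and 3 and positive on arrays 2 and 4 (alternating component -0.106), a difference past no threshold. This split of signs, or the opposite one, was found in 28.8% of all probes. Among the named genes of the wider list, JUNB differed by the test (-0.301), while BTC (0.209) and FOSL1 (-0.205) had opposite signs in the orientations without passing it. In HBEGF, averaged over 2 clones, array 1 stood apart from the other arrays, with a gap of 0.837 of the whole range. Chance gives such an outlying array in about 1 in 20 values examined.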

How the results depend on the processing

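The means of all 11 member clones moved by less than 1 SD under median centring, scaling to 1 median absolute deviation and quantile normalization. They also did so for the median over the arrays, 1 orientation only and each left-out array. There the arithmetic of 4 values fixes such a shift in advance, so nothing is read from it. On arrays 2 and 4 only, SPRY2 (-0.18) and ETV5 clone 1 (-0.06) turned sign. ETV5 clone 2 did so on arrays 1 and 3 only (-0.07), and the other clones kept their sign in both orientations. ERRFI1 changed with the choice of clone, at 0.70 over both clones and 1.31 for the larger. With an array left out the means lay at 1.21 to 1.36 (ERRFI1 clone 1), 0.70 to 0.82 (IER3), 0.37 to 0.50 (ETV4), 0.27 to 0.51 (DUSP5), 0.02 to 0.25 (SPRY2), -0.19 to -0.13 (FOS), -0.17 to -0.02 (SPRY4), -0.14 to -0.04 (DUSP4), 0.02 to 0.14 (ERRFI1 clone 2), 0.02 to 0.16 (ETV5 clone 1) and -0.0006 to 0.08 (ETV5 clone 2, which turned sign).

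Counts of calls moved more. The shared component was also fitted without the dye term, and the alternating one without the common term. In these fits 231 probes (shared component), 102 probes (alternating component), 156 genes and 0 genes of the wider list in either component passed. Without moderation these were 0, 4, 0 and 0, with 2514 and 4122 probes, 1337 genes, and 5 and 4 listed genes at an unadjusted p under 0.05 in limma. At a threshold of 0.1 they were 867, 3154, 613, and 2 (shared) and 5 (alternating) of the list. The top probe per gene gave 634 genes, and 4 and 8 of the list. With an array left out the counts were 271 to 884 and 113 to 1874 probes, 179 to 1471 genes, and 0 to 7 and 0 to 8 of the list. The count of 7 was without array 1 and that of 0 without array 2 or 4. The cause was not tested. No paired analysis was possible because each array already holds both cultures and there is 1 group of arrays. The simulated probes had independent noise.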

Other observations

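The 6 EGFR clones did not share a pattern over the arrays. One of them lay at -0.23 and -0.25 on arrays 1 and 3 and at 0.20 and 0.20 on arrays 2 and 4 (alternating component -0.22, limma adjusted p = 0.0423). Another had the opposite order, with 0.20 and 0.24 on arrays 1 and 3 and -0.15 and -0.06 on arrays 2 and 4 (0.16, adjusted p = 0.0925). The EGFR clones are described after their values were seen.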
